A study of Mus musculus with 12 samples.

Results

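The 9 integrin subunits examined here are the alpha subunits Itgal, Itga4, Itgae, Itgav and Itga6 and the beta subunits Itgb1, Itgb2, Itgb3 and Itgb7, which were taken by their symbols from the 14323 genes of the count table as the subunits of the heterodimers known on T cells. All 9 had a row in the table. RNA was sequenced from naïve CD8+ T cells, gated as CD44-negative among other markers, of 3 wild type mice whose splenocytes were sorted and kept for 6 h on plates coated with antibody. Each mouse contributed 1 library to each of 4 groups: wells with isotype control alone (unstimulated, isotype), with anti-LAIR-1 clone 2C7 (unstimulated, anti-LAIR-1), with anti-CD3ε and isotype control (anti-CD3, isotype), and with anti-CD3ε and anti-LAIR-1 (anti-CD3, anti-LAIR-1). Anti-CD3ε and anti-LAIR-1 were each coated at 2.5 µg/ml, and each well held 100000 cells. The wells held sorted T cells on immobilized antibody, with no antigen-presenting cell and no integrin ligand named in the protocol. The groups address which transcripts follow stimulation through CD3, and how ligation of LAIR-1, an inhibitory collagen receptor, alters them.

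Integrins are transmembrane receptors made of 1 alpha and 1 beta chain, and a chain reaches the cell surface only once it has paired. On T cells they carry arrest on the vessel wall, entry into tissue and the adhesion that stabilises contact with an antigen-presenting cell. Itgal (αL, CD11a) pairs with Itgb2 (β2, CD18) to form LFA-1, the receptor for ICAM proteins. Itga4 (α4, CD49d) pairs with Itgb1 (β1, CD29) to form VLA-4, which binds VCAM-1 and fibronectin, or with Itgb7 (β7) to form the gut-homing receptor for MAdCAM-1. Itgae (αE, CD103) pairs with Itgb7 and binds E-cadherin on epithelium. Itga6 (α6) pairs with Itgb1 into a laminin receptor, and Itgav (αv) joins Itgb1 or Itgb3 (β3) into receptors for matrix proteins such as vitronectin.

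The genes lie on 6 chromosomes of GRCm38 (mm10). Itga6 (chr2:71745616-71858416), Itga4 (chr2:79255426-79333123) and Itgav (chr2:83724397-83806916) share chromosome 2, and Itga4 and Itgav are 4.39 Mb apart. Itgae (chr11:73090583-73147446) and Itgb3 (chr11:104608000-104670476) lie on chromosome 11. Itgal (chr7:127296260-127335138), Itgb1 (chr8:128685654-128733200), Itgb2 (chr10:77530252-77565708) and Itgb7 (chr15:102215995-102231944) are on chromosomes of their own, and Itgb7 is the only one of the 9 on the minus strand.

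The 250 bases before the RefSeq transcription start (GRCm38.p6) were read for Itga4, Itgb7, Itgav and Itgb1, the only 4 of the 9 subunits with an entry in the promoter table, and are shown as the sequence next to these genes' start sites. Each is written 5′ to 3′ on the strand of its gene, with matches to the motifs named below in capitals. The last few bases of the Itgb7 stretch lie inside the gene as GENCODE draws it.
Itga4, chr2:79255176-79255425, plus strand: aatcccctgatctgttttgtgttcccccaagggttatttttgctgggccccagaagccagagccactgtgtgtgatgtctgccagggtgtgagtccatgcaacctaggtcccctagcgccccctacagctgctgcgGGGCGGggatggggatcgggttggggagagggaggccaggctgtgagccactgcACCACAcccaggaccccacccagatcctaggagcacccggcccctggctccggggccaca
Itgb7, chr15:102231936-102232185, minus strand: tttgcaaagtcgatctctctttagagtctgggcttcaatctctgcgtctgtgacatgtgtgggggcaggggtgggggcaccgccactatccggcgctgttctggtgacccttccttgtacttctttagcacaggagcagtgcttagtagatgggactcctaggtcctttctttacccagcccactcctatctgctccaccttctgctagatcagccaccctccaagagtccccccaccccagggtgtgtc
Itgav, chr2:83724147-83724396, plus strand: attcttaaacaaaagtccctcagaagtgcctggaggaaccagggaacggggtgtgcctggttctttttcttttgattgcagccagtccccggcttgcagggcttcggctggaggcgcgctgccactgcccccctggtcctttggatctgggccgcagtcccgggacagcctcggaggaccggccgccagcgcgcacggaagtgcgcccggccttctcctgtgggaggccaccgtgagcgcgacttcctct
Itgb1, chr8:128685404-128685653, plus strand: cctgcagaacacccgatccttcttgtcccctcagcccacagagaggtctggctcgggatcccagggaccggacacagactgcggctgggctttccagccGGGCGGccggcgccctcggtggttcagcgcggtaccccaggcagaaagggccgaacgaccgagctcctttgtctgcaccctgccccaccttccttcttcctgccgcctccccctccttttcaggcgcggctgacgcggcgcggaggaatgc
The stretches held 6 (Itga4), 5 (Itgb7), 18 (Itgav) and 21 (Itgb1) CpG dinucleotides. Over all 32851 RefSeq stretches of this length the median was 6, with quartiles of 2 and 16. GC content was 64.0% for Itga4, 56.0% for Itgb7, 64.4% for Itgav and 68.0% for Itgb1, against a median of 52.4%. Of 6 short motifs searched on both strands, SP1 (GGGCGG) was matched once in Itga4, starting 114 bases before the start site, and once in Itgb1, at 151 bases. RUNX (TGTGGT) was matched once, in Itga4 on the opposite strand at 60 bases. The SP1 letters occur in 32.7% of all the stretches and the RUNX letters in 14.1%. ETS (CCGGAA, in 12.03%), NFAT (GGAAAA, in 20.4%), AP-1 (TGANTCA, in 6.75%) and E-box (CACGTG, in 6.02%) were matched in none of the 4. No motif overlapped another, and the matches describe letters only.

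The table holds read counts per gene, with 1781218 to 7725545 counts per library. The unstimulated, isotype libraries were the shallowest (1781218 to 2957929) and the anti-CD3, anti-LAIR-1 libraries the deepest (4889990 to 7725545). A count of 3 equals 0.388 to 1.68 CPM in these libraries, where CPM are the counts of a gene for every 1000000 counts of its library. Mitochondrial transcripts took 17.6 to 20.9% of the counts without anti-CD3 and 11.5 to 13.2% with it. Transcripts of the sorted cells were abundant in every library, with Cd3e at 359 CPM or more and Cd8a at 319 or more. Of the markers of other lineages present in the table, the 4 of CD4 T cells summed to 0.277 to 4.84 CPM, the 5 of B cells to 1.35 to 9.68, the 5 of myeloid cells to 0.991 to 5.38 and the 5 of dendritic cells to 0.265 to 4.23. The 4 platelet and megakaryocyte markers, the other cells known for Itgb3, summed to 0 to 5.56, and the single erythroid marker present, Alas2, to 0 to 0.407. The 2 natural killer cell markers were Klrb1c, at 0.661 or less, and Prf1, which activated CD8+ T cells also make and which brought their sum to 5.29 to 10.5 with anti-CD3. Anti-CD3 raised the activation genes Nr4a1 (log2 fold change 3.69 ± 0.12, standard error), Cd69 (2.69 ± 0.10) and Il2ra (5.00 ± 0.15) with isotype, each at an edgeR adjusted p of 2.16e-16 or less. Lair1 itself gave 0 to 7 counts per library and was not tested.

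Stimulation through CD3 split the 9 subunits. Itgal, Itgb2, Itgav and Itgb1 rose between 1.94- and 3.22-fold with isotype control. Itga4, Itgb7 and Itgae fell between 8.46- and 17.3-fold. Itga6 and Itgb3 fell to the edge of detection. Of the 8441 protein-coding genes tested, 35.6% were called higher and 35.7% lower at an edgeR adjusted p below 0.05. Itga6 and Itgb3 passed the filter on low counts only through the unstimulated libraries, so that being tested at all went with a fall, and they are not read against these shares. The other 7 subunits passed it in both groups, and the 4 rises and 3 falls among them compare with 38.15% called higher and 31.96% called lower of the 7080 genes that did so. In no case did the 3 anti-CD3, isotype libraries overlap the 3 unstimulated, isotype libraries. The share of all genes without such overlap was not counted, so that this is a description only. Values are CPM after TMM scaling over the 12 libraries, given for mouse 1, mouse 2 and mouse 3 in turn. The RNA came from whole wells, so that fewer cells carrying a transcript and less of it per cell cannot be told apart.

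**Figure D1:**
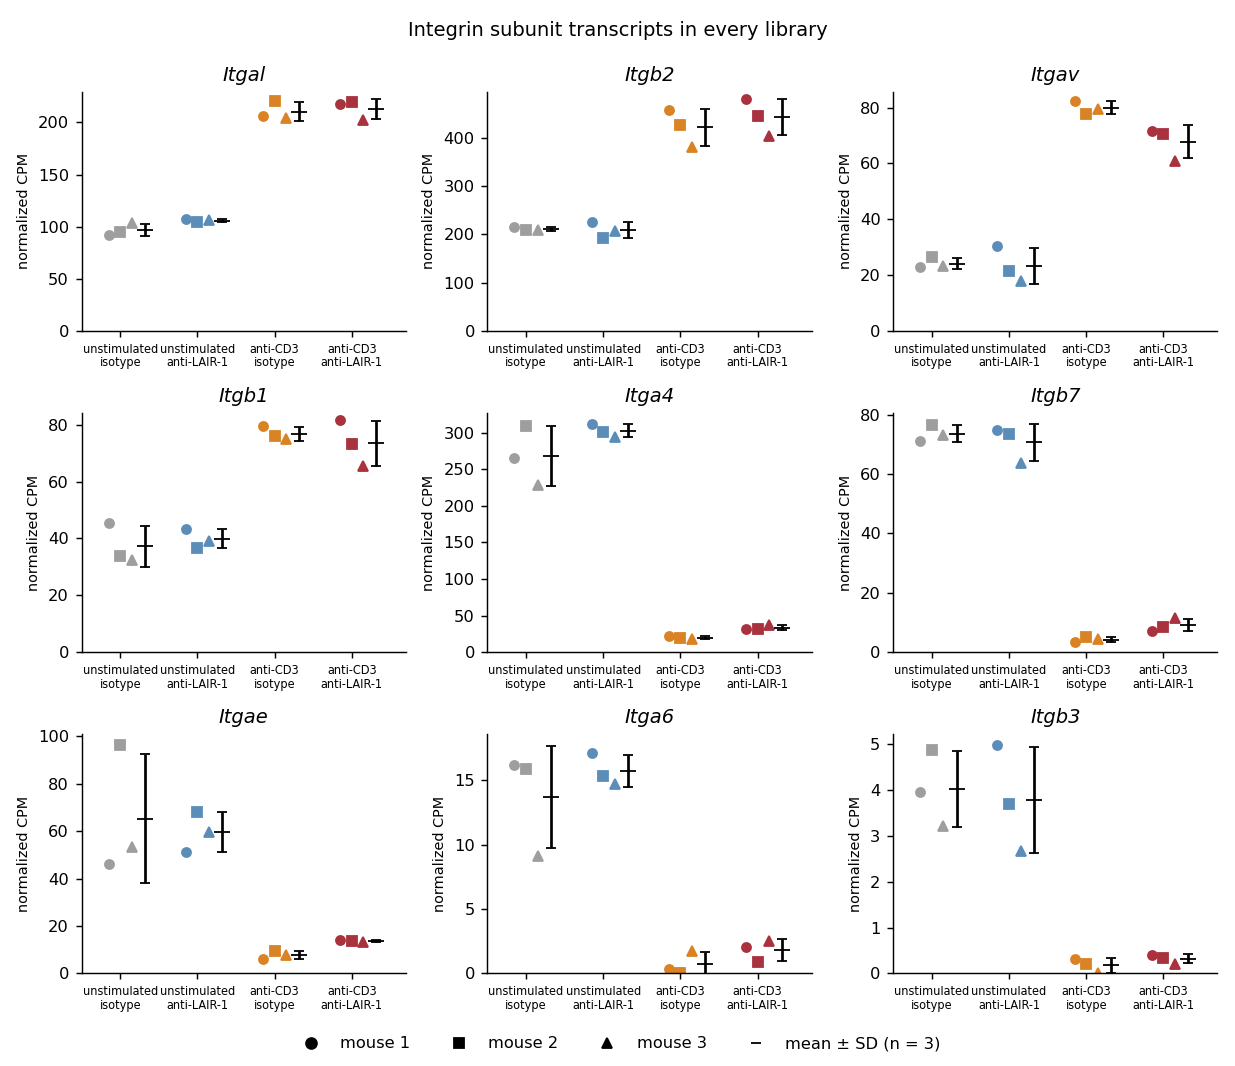
Normalized CPM of each integrin subunit in each of the 12 libraries, by group, with the mean and SD of 3 mice beside the points (axes start at 0 and differ between panels). Itgal, Itgb2, Itgav and Itgb1 sit higher in both anti-CD3 groups than in both unstimulated groups, and Itga4, Itgb7, Itgae, Itga6 and Itgb3 sit lower.

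Both chains of LFA-1 rose by similar amounts. Itgal stood at 92.5, 94.5 and 104 in the unstimulated, isotype libraries and at 206, 221 and 205 in the anti-CD3, isotype libraries. The log2 fold change was 1.09 ± 0.10 (adjusted p = 2.08e-09). Itgb2, shared by all leukocyte β2 integrins, went from 215, 209 and 209.8 to 458, 426 and 380.5, a log2 fold change of 0.96 ± 0.09 (adjusted p = 3.81e-09). Every stimulated library lay above every unstimulated library for either chain. Itgam and Itgax, the alpha chains of the myeloid β2 integrins, stayed at 0.794 and 1.86 or less in all 12 libraries.

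The αv chain rose most among the 4. Itgav went from 22.8, 26.5 and 23.1 to 82.4, 77.9 and 79.3, a log2 fold change of 1.69 ± 0.14 (adjusted p = 2.1e-10). Itgb1, the β chain with the most alpha partners, went from 45.6, 33.8 and 32.3 to 79.7, 76.0 and 75.01, a log2 fold change of 0.99 ± 0.14 (adjusted p = 1.46e-06). Mouse 1 was the highest of the unstimulated libraries for Itgb1, and still lay below every stimulated library.

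The α4 and β7 chains fell together. Itga4 went from 266, 309.6 and 228 to 22.0, 19.0 and 18.3, a log2 fold change of -3.81 ± 0.14 (adjusted p = 5.87e-17). Itgb7 went from 71.0, 76.6 and 73.2 to 3.32, 5.08 and 4.34, a log2 fold change of -4.11 ± 0.19 (adjusted p = 4.48e-15). In either gene the unstimulated libraries were far above the stimulated ones in each mouse, with differences of -3.56 to -3.99 for Itga4 and -3.79 to -4.24 for Itgb7 on the log2 scale.

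Itgae, the αE chain, went from 46.2, 96.5 and 53.3 to 6.04, 9.52 and 7.71, a log2 fold change of -3.08 ± 0.25 (adjusted p = 1.04e-10). The unstimulated library of mouse 2 stood well above the other two, with an SD of 27.2 around a group mean of 65.3. Without that library the log2 fold change was -2.69.

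The remaining subunits were at the edge of detection after stimulation. Itga6 went from 16.2, 15.9 and 9.15 to 0.302, 0 and 1.77, which are 49, 39 and 17 counts against 1, 0 and 11. The log2 fold change was -4.07 ± 0.51 (adjusted p = 1.97e-07), and it was -6.41 without the anti-CD3, isotype library of mouse 3, which held 11 of the 12 stimulated counts. Over summed counts, 105 against 12, the level was 17.0 times higher without anti-CD3 (95% exact interval 9.33 to 34.0, counting error only).

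Itgb3 gave 12, 12 and 6 counts without anti-CD3 and 1, 1 and 0 with it, so that its summed level was 29.1 times higher without anti-CD3 (95% exact interval 7.40 to 252, counting error only). The fitted log2 fold change was -4.58 ± 0.73 (adjusted p = 6.93e-06). Without anti-CD3, Itgb3 stood at 3.23 to 4.89 CPM with isotype control and at 2.67 to 4.98 with anti-LAIR-1. The platelet and megakaryocyte markers summed to 0 to 1.65 and to 2.14 to 5.56 in the same groups. The part of such cells in the level of Itgb3 was not tested.

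With anti-LAIR-1 on the plate, the 7 subunits that passed the filter in both groups were called in the same directions after anti-CD3. Itga6 and Itgb3 were again called lower. Of 8723 genes tested, 36.8% were called higher and 36.0% lower. Itga6 and Itgb3 again passed the filter on low counts only through the unstimulated libraries. They are not read against these shares, nor as agreement with the isotype wells. The 4 rises and 3 falls of the other 7 subunits compare with 39.1% higher and 33.4% lower of the 7640 genes that passed in both groups. This comparison shares no library with the one on isotype control, but both use cells of the same 3 mice. Itgal rose by 1.00 ± 0.08, Itgb2 by 1.08 ± 0.09, Itgav by 1.54 ± 0.16 and Itgb1 by 0.88 ± 0.12 on the log2 scale, with adjusted p from 1.15e-09 to 2.16e-06. Itga4 fell by 3.20 ± 0.10, Itgb7 by 2.99 ± 0.16, Itgae by 2.13 ± 0.14, Itga6 by 3.14 ± 0.31 and Itgb3 by 3.42 ± 0.55, with adjusted p from 1.47e-15 to 1.52e-05. As linear folds, Itga4 fell 14.05-fold with isotype control and 9.19-fold with anti-LAIR-1, Itgb7 17.3-fold and 7.97-fold, and Itgae 8.46-fold and 4.37-fold. The rises were 2.12-fold and 2.01-fold for Itgal, 1.94-fold and 2.12-fold for Itgb2, 3.22-fold and 2.91-fold for Itgav, and 1.98-fold and 1.84-fold for Itgb1.

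**Figure D2:**
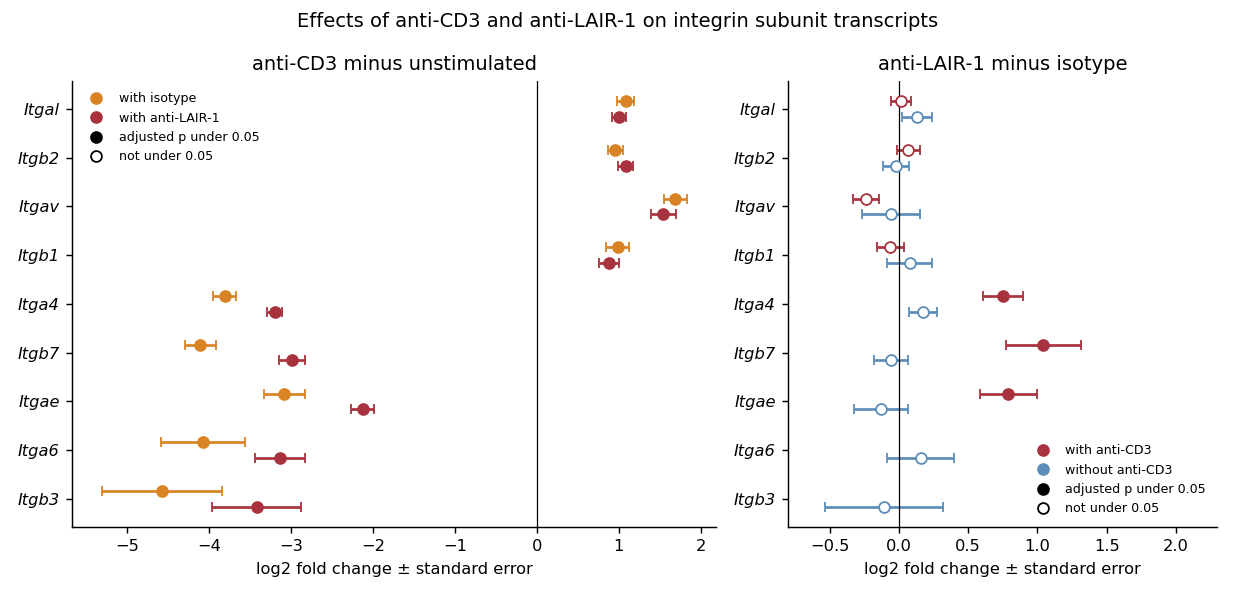
Log2 fold change with its standard error (edgeR) for each subunit: left, anti-CD3 against unstimulated, in isotype (orange) and anti-LAIR-1 (red) wells; right, anti-LAIR-1 against isotype, with (red) and without (blue) anti-CD3. Filled points had an adjusted p below 0.05. Itga4, Itgb7 and Itgae are the only filled points on the right, and Itga6 and Itgb3 have no point with anti-CD3 because they did not pass the filter on low counts there.

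Among stimulated cells, anti-LAIR-1 left Itga4, Itgb7 and Itgae higher than isotype control did. These were 3 of the 7 subunits tested, where 3.92% of 8539 genes were called higher and 1.87% lower, and no subunit was called lower. Itga4 stood at 22.0, 19.0 and 18.3 with isotype control and at 31.5, 31.2 and 37.0 with anti-LAIR-1, a log2 fold change of 0.75 ± 0.14 (adjusted p = 0.00392). Itgb7 stood at 3.32, 5.08 and 4.34 against 7.27, 8.61 and 11.4, a log2 fold change of 1.04 ± 0.27 (adjusted p = 0.0299). Itgae stood at 6.04, 9.52 and 7.71 against 14.00, 13.8 and 13.1, a log2 fold change of 0.79 ± 0.21 (adjusted p = 0.0313). In all 3 genes the groups did not overlap and each mouse was higher with anti-LAIR-1, by 0.51 to 1.00 for Itga4, 0.71 to 1.31 for Itgb7 and 0.52 to 1.15 for Itgae on the log2 scale. How many of all genes were free of overlap between these groups was not counted. All these libraries remained below every unstimulated library of the same gene.

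The strength of the 3 calls differed. Itga4 was called under all 17 alternative settings, with adjusted p from 0.000116 to 0.0399. Itgb7 was called under 10 of 17 (adjusted p from 0.00455 to 0.261) and Itgae under 8 of 17 (from 0.0116 to 0.262). The call for Itgb7 was lost on leaving out any 1 of the 6 libraries except the anti-LAIR-1 library of mouse 1, and that for Itgae on leaving out any except the isotype library of mouse 2. With the mouse as a block, edgeR kept both (adjusted p = 0.0207 for Itgb7 and 0.0357 for Itgae) and DESeq2 kept neither (0.206 and 0.262).

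The subunits that rose after anti-CD3 were not called between anti-LAIR-1 and isotype control. Itgal stood at 206, 221 and 205 with isotype control and at 218, 219.9 and 202 with anti-LAIR-1 (log2 fold change 0.01 ± 0.07). Itgb2 (0.07 ± 0.08) and Itgb1 (-0.06 ± 0.10) overlapped between the groups as well. Itgav stood at 82.4, 77.9 and 79.3 against 71.6, 70.7 and 60.9, so that its groups did not overlap, but its log2 fold change of -0.24 ± 0.09 was not called (adjusted p = 0.173).

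Itga6 and Itgb3 did not pass the filter on low counts in the comparison of anti-LAIR-1 with isotype control in stimulated cells. Itga6 gave 12 counts over the 3 isotype libraries and 32 over the 3 anti-LAIR-1 libraries, a ratio of 2.10 (95% exact interval 1.05 to 4.49, counting error only), and its groups overlapped. Itgb3 gave 2 and 6 counts, a ratio of 2.37 (95% exact interval 0.423 to 24.0). With no filter, the log2 fold changes were 1.13 ± 0.65 for Itga6 (edgeR adjusted p = 0.431) and 1.06 ± 1.45 for Itgb3 (adjusted p = 0.765), and neither was called.

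The summed levels of T cell marker lists also differed between these groups. The 8 naïve CD8 markers followed, Ccr7, Lef1, Tcf7 and the CD3 and CD8 chains, summed to 4107 to 4689 CPM without anti-CD3, to 1643 to 1774 with anti-CD3 and isotype control, and to 2036 to 2291 with anti-CD3 and anti-LAIR-1. The 7 effector or memory markers summed to 152 to 171, to 333 to 349.9 and to 241 to 279 in the same order. Members of either list differed. Between the stimulated groups, Cd3d, Cd3e, Cd3g, Cd8b1, Lef1 and Tcf7 were higher with anti-LAIR-1 without overlap, Cd8a overlapped, and Ccr7 stood at 147 to 215 with isotype control and at 143 to 175 with anti-LAIR-1. Of the effector or memory markers, Nkg7 (167 to 171 against 102 to 112), Eomes and Tbx21 were lower with anti-LAIR-1 without overlap. Il2rb (69.2 to 82.3 against 69.0 to 82.4), Cd44 and Ccl5 overlapped, and Cx3cr1 was at or near 0. Ccl5, Il2rb and Eomes (28.1 to 40.3 against 39.2 to 48.3) also overlapped between the unstimulated, isotype and the anti-CD3, isotype libraries. The part of these shifts in the 3 subunits' differences was not tested. The anti-LAIR-1 library was deeper than the isotype library in mice 1 and 2 and shallower in mouse 3. The log2 difference was largest in mouse 3 for Itga4 (1.00) and Itgb7 (1.31) and in mouse 1 for Itgae (1.15), where the anti-LAIR-1 library held 7725545 counts and the isotype library 3478294. With every library thinned to the smallest total, Itga4 was still called, and Itgb7 (0.87, adjusted p = 0.261) and Itgae (0.90, adjusted p = 0.131) were not.

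Without anti-CD3, no subunit was called for anti-LAIR-1. edgeR called 0 of the 9, in a comparison in which 0% of 8500 genes were called in either direction, DESeq2 likewise called 0 genes, and 365 genes had an unadjusted p below 0.05, none of them a subunit. The log2 fold changes ran from -0.13 ± 0.19 for Itgae to 0.17 ± 0.10 for Itga4 (adjusted p = 0.997 for all 9). Itga4 stood at 266, 309.6 and 228 with isotype control and at 312, 301 and 295 with anti-LAIR-1, so that its groups overlapped. Itgal was the exception, with 92.5, 94.5 and 104 against 107, 104 and 107, where the highest isotype value (103.8) lay just below the lowest anti-LAIR-1 value (104.1).

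The interaction term asks whether the effect of anti-LAIR-1 differed with and without anti-CD3, and equally whether the fall after anti-CD3 differed with and without anti-LAIR-1. It was called for 1 of the 9 subunits, Itgb7, against 2.09% of 8916 genes. The term for Itgb7 was 1.09 ± 0.26 on the log2 scale (adjusted p = 0.0248), made of 1.04 with anti-CD3 and -0.06 without. For Itga4 it was 0.58 ± 0.17 (adjusted p = 0.0699) and for Itgae 0.92 ± 0.32 (adjusted p = 0.158), so that this fit showed a difference between the conditions for neither. Each was called under 2 of 22 alternative settings. For Itga4 these were DESeq2 (adjusted p = 0.0347) and leaving out the unstimulated, isotype library of mouse 3. For Itgae they were edgeR with no filter (adjusted p = 0.0264) and leaving out the unstimulated, isotype library of mouse 1. The terms of the other 6 subunits lay between -0.18 and 1.18, and the 2 above 0.5 belonged to Itga6 (0.92 ± 0.69) and Itgb3 (1.18 ± 1.13), with the lowest counts.

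Ordered by group mean, the 5 falling subunits had the same lower end, with anti-CD3, isotype lowest and anti-CD3, anti-LAIR-1 next. The step between these groups was free of overlap for Itga4, Itgb7 and Itgae and overlapped for Itga6 and Itgb3. For all 9 subunits the step between the stimulated and the unstimulated groups was free of overlap. The unstimulated groups overlapped each other for 8 subunits, Itgal being the other. The share of all genes free of overlap at each step was not counted, so that the order is a description only.

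Because an integrin is assembled from 1 alpha and 1 beta chain, the ratio of their counts was followed within each library as the log2 of alpha over beta, with 0.5 added to each count. The counts are of transcript ends and were not scaled by length, so that only shifts of a ratio between groups are described, without a test. For LFA-1 the ratio of Itgal to Itgb2 had means of -1.12 ± 0.10 (SD, n = 3) and -0.998 ± 0.14 in the isotype groups without and with anti-CD3 and of -0.97 ± 0.10 and -1.05 ± 0.08 in the anti-LAIR-1 groups. The values of all 4 groups overlapped.

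The pairs that share Itga4 parted. The ratio of Itga4 to Itgb7 was 1.85 ± 0.19 and 2.21 ± 0.42 without and with anti-CD3 in isotype wells, and 2.10 ± 0.10 and 1.88 ± 0.21 in anti-LAIR-1 wells, with overlap at each of these steps. The ratio of Itga4 to Itgb1 went from 2.85 ± 0.32 to -1.96 ± 0.10 in isotype wells and from 2.92 ± 0.09 to -1.14 ± 0.28 in anti-LAIR-1 wells. In each library without anti-CD3 there were more Itga4 than Itgb1 counts, and in each library with anti-CD3 there were fewer. Among stimulated libraries the ratio was -1.85, -1.99 and -2.03 with isotype control and -1.37, -1.23 and -0.82 with anti-LAIR-1, which did not overlap.

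Itgae fell less than its partner Itgb7 after anti-CD3. Their ratio went from -0.25 ± 0.51 to 0.85 ± 0.04 in isotype wells and from -0.25 ± 0.26 to 0.61 ± 0.38 in anti-LAIR-1 wells, without overlap in either. Itgav rose more than Itgb1, and their ratio went from -0.61 ± 0.34 to 0.05 ± 0.02 and from -0.80 ± 0.31 to -0.11 ± 0.07. Between anti-LAIR-1 and isotype control in stimulated cells the Itgae to Itgb7 ratio overlapped, and that of Itgav to Itgb1 shifted by -0.17 without overlap. The ratios of Itga6 to Itgb1 and Itgav to Itgb3 rest on counts of 0 to 15 after stimulation and are not described further.

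**Figure D3:**
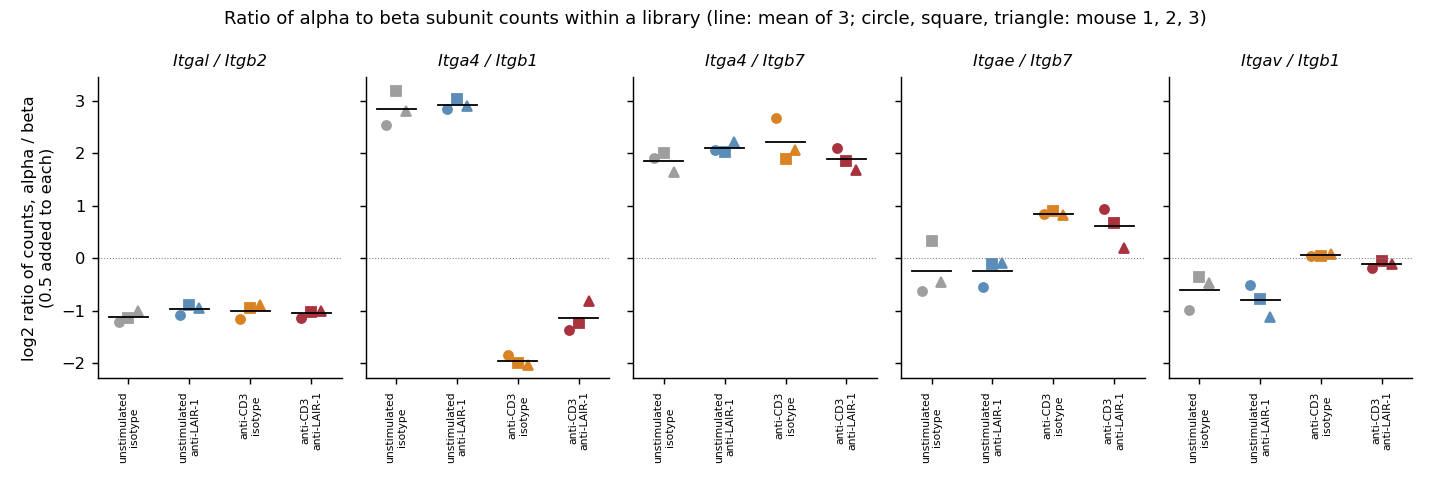
Log2 ratio of alpha to beta subunit counts within each of the 12 libraries (0.5 added to each count), for 5 heterodimers by group, with a line at the mean of 3 mice. The Itga4 to Itgb1 ratio lies above 0 without anti-CD3 and below 0 with it, while that of Itgal to Itgb2 lies between -1.22 and -0.89 and that of Itga4 to Itgb7 between 1.64 and 2.68 in every library.

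The 3 genes whose log2 level followed each subunit most closely over the 12 libraries were named by Pearson's r over 8915 genes, as a description. For Itga4 these were Fryl, Il7r, the receptor of the naïve-cell survival cytokine interleukin-7, and Pcmtd2 (r = 0.999 each). For Itgb7 the first were Hmha1 (r = 0.998) and Lsp1, an actin-binding protein of leukocytes (r = 0.997). For Itgae they were Rin3, Fam65a and Rit1 (0.990 to 0.991). For Itgal they were Clptm1l, the activation marker Cd69 and the nuclear import factor Kpnb1 (0.995 to 0.996), and for Itgb2 Rheb, Hsp90ab1 and Rnps1 (0.992 to 0.993). For Itgav they were Aven, Eftud2 and Vma21 (0.993 to 0.995), and for Itgb1 Nup54, Nrn1 and Rab8b (0.989 to 0.990). Itga6 was nearest to Pcif1, Ldlrad4 and Glrx (0.982 to 0.988), and Itgb3 to Serinc5, Tshz1 and F2rl1 (0.991 to 0.995). All these points share the split between unstimulated and stimulated libraries, and ranking by Spearman's rho instead kept all 3 genes for none of the 9. That ranking kept 2 for Itgav, 1 each for Itga4, Itgae and Itgb3, and 0 for Itga6, Itgal, Itgb1, Itgb2 and Itgb7.

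Genes that regulate or partner integrins were followed in 6 lists. Of 49 such genes tested in isotype wells, 8 (16.3%) rose and 31 (63.3%) fell after anti-CD3, against 35.6% and 35.7% of all genes tested, with a median log2 fold change of -1.05 against -0.01. The falls include 6 genes that passed the filter on low counts only through the unstimulated libraries. These were Rasgrp2, Evl, Tns1, Tspan32, Cd151 and Cd81. The 43 genes that passed in both groups gave 8 rises (18.6%) and 25 falls (58.1%), against 38.15% and 31.96% of all such genes. In anti-LAIR-1 wells 11 of 50 rose and 27 fell, against 36.8% and 36.0% of all genes, with a median of -0.40 against -0.02. Of the 46 that passed in both groups, 11 (23.9%) rose and 25 (54.3%) fell, against 39.1% and 33.4% of all such genes. Among stimulated cells, 7 of 50 were called higher with anti-LAIR-1 and none lower, against 3.92% and 1.87% of all genes, with a median of 0.19 against 0.0039. Of the 45 that passed the filter in both groups, 6 (13.3%) were called higher, against 4.01% of the 7905 genes that did so. Without anti-CD3 none of 49 was called.

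The largest list holds genes of inside-out activation, the signalling that switches an integrin to its high-affinity form through the GTPase Rap1, talin and kindlin. After anti-CD3 with isotype control 2 of its 17 tested genes rose and 13 fell, against 35.6% and 35.7% of all genes. Rasgrp2, a Rap1 exchange factor, went from 46.2 to 53.3 CPM down to 1.45 to 2.72, a log2 fold change of -4.64 ± 0.25 (adjusted p = 8.38e-14). It passed the filter on low counts only through the unstimulated libraries, so that the 13 falls are not read against these shares. Every other tested gene of the list passed in both groups. Over all genes that passed in both groups, 38.15% rose and 31.96% fell. Fyb, the adaptor ADAP, had a log2 fold change of -3.60 ± 0.15 (adjusted p = 7.04e-16), its partner Skap1 fell by 2.23 ± 0.13 and talin itself, Tln1, fell by 1.29 ± 0.12. The list also holds Rasa3, Sipa1 and Sipa1l1, which turn Rap1 off, and these fell as well, at -4.76 ± 0.17 for Rasa3 (adjusted p = 6.52e-17), -1.43 ± 0.17 for Sipa1 and -1.67 ± 0.14 for Sipa1l1. The 2 that rose were Rapgef1, another Rap1 exchange factor, by 0.71 ± 0.11 and Rap1a by 0.34 ± 0.11.

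In stimulated cells, 5 of these 17 genes were called higher with anti-LAIR-1 and none lower, where 3.92% of all genes were called higher and 1.87% lower. Rasa3 stood at 9.95 to 14.8 CPM with isotype control and at 27.9 to 48.2 with anti-LAIR-1, a log2 fold change of 1.45 ± 0.21 (adjusted p = 0.000405). The 5 include Rasgrp2, at 1.45 to 2.72 CPM with isotype control. It passed the filter on low counts only through the anti-LAIR-1 libraries and is not read against these shares. The log2 fold change of Rasgrp2 was 1.24 ± 0.35 (adjusted p = 0.0486). Fyb rose by 0.63 ± 0.17 (adjusted p = 0.0367), Skap1 by 0.62 ± 0.14 (adjusted p = 0.00971) and Sipa1 by 0.55 ± 0.16 (adjusted p = 0.0493). The interaction was called for Rasa3 (1.73 ± 0.26, adjusted p = 0.000185) and Skap1 (0.84 ± 0.16, adjusted p = 0.00359), and for no other gene of the 6 lists.

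Of 6 integrin inactivators, which keep the receptor in its resting form or bind its tail in competition with talin, 4 fell and none rose after anti-CD3 with isotype control. Over all genes tested, 35.7% fell and 35.6% rose. Cytip, which binds the β2 regulator cytohesin-1, fell by 3.19 ± 0.12 (adjusted p = 2.49e-16). The log2 fold changes of the other 3 were -1.78 ± 0.10 for Flna (filamin A), -1.70 ± 0.26 for Dok2 and -0.56 ± 0.15 for Sharpin. Anti-LAIR-1 in stimulated cells raised Cytip by 0.65 ± 0.14 (adjusted p = 0.00885) and no other of the 6, where 3.92% of all genes were called higher.

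Among genes that link integrins to the cytoskeleton or signal from them, 4 of 15 (26.7%) rose and 8 (53.3%) fell after anti-CD3 with isotype control, against 35.6% and 35.7% of all genes. The falls were led by Actn1 (α-actinin-1), at -3.58 ± 0.11 (adjusted p = 3.38e-18), Evl at -2.83 ± 0.28 and Arhgef6 at -2.62 ± 0.24. Evl and Tns1 fell and passed the filter on low counts only through the unstimulated libraries. The 8 falls are therefore not read against these shares. Of the genes that passed in both groups, Actn1, Arhgef6, Ilk, Git2, Pxn and Zyx fell. Actn4, Arhgef7, Nedd9 and Parvg rose, and Ptk2b, Lims1 and Vasp were not called. Over all genes that passed in both groups, 38.15% rose and 31.96% fell. Actn4, the other α-actinin in the list, rose by 0.41 ± 0.12. In anti-LAIR-1 wells 4 of 16 (25%) rose and 5 (31.2%) fell, against 36.8% and 36.0% of all genes. None of the 15 tested in stimulated cells was called between anti-LAIR-1 and isotype control, against 3.92% higher and 1.87% lower of all genes.

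Of the tetraspanins, which organise integrins in the membrane, and Cd47, the integrin-associated protein, 1 of 8 rose and 5 fell after anti-CD3 with isotype control. Over all genes tested, 35.6% rose and 35.7% fell. Tspan32, Cd151 and Cd81 fell and passed the filter on low counts only through the unstimulated libraries. The 5 falls are therefore not read against these shares. Of the genes that passed in both groups, Cd47 and Cd37 fell, Cd82 rose, and Cd9 and Cd53 were not called. Over all genes that passed in both groups, 38.15% rose and 31.96% fell. Tspan32 fell by 3.64 ± 0.31 (adjusted p = 3.04e-10), Cd47 fell by 3.13 ± 0.14 (adjusted p = 2.22e-15), Cd151 fell by 2.15 ± 0.30 (adjusted p = 1.24e-06), and Cd82 rose by 1.77 ± 0.14 (adjusted p = 5.33e-11). In anti-LAIR-1 wells 3 of 8 (37.5%) rose and 5 (62.5%) fell, and over all genes 36.8% rose and 36.0% fell. Tspan32 and Cd81 again passed the filter only through the unstimulated libraries, so that the 5 falls are not read against these shares. Of the genes that passed in both groups, Cd9, Cd53 and Cd82 rose and Cd37, Cd47 and Cd151 fell. Over all genes that did so, 39.1% rose and 33.4% fell. Cd47 was the gene of this list called higher with anti-LAIR-1 in stimulated cells (0.59 ± 0.15, adjusted p = 0.0271), where 3.92% of all genes were called higher.

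**Figure D4:**
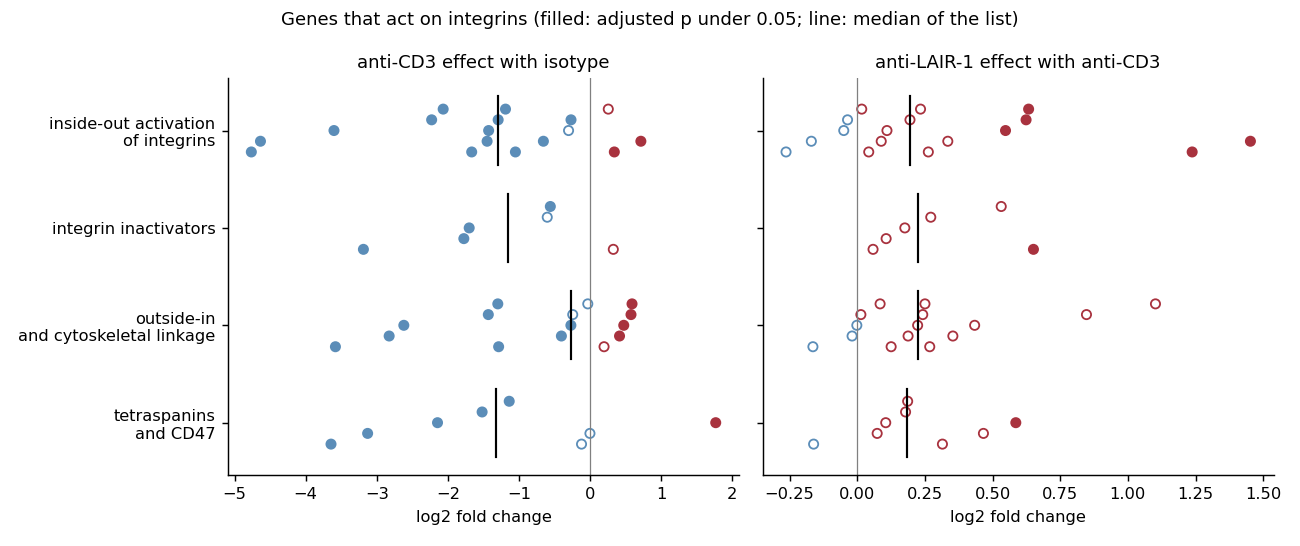
Log2 fold change of genes in 4 lists of integrin regulators and partners, after anti-CD3 in isotype wells (left) and for anti-LAIR-1 against isotype in stimulated cells (right, on a narrower axis). Filled points had an edgeR adjusted p below 0.05 and black lines mark list medians, which lie below 0 on the left and between 0.18 and 0.22 on the right.

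Other integrin subunits were nearly silent. Of 17 listed, 12 had a row and only Itga3, a laminin-receptor alpha chain, passed the filter on low counts. It rose by 1.05 ± 0.30 after anti-CD3 with isotype control (adjusted p = 0.00371) and by 1.12 ± 0.31 with anti-LAIR-1 (adjusted p = 0.00311). Of the ligands and counter-receptors of integrins, Icam2, a ligand of LFA-1, fell by 0.76 ± 0.16 with isotype control (adjusted p = 0.000173) and by 0.52 ± 0.13 with anti-LAIR-1 (adjusted p = 0.00195). Icam1, the main LFA-1 ligand, was not called in any comparison.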

How the data were processed

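CEL-seq libraries, which count transcript ends, were made from 4 groups of 3 libraries each, 12 in all. The authors deposited raw read counts per gene symbol: the transcript read of each pair was placed on the mm10 transcriptome by BWA MEM, reads with several equally good positions were dropped, and whether molecular identifiers were collapsed is not given in the sources used here. The 14323 symbols were matched to GENCODE M21 (14273 matched, 13160 protein coding). Counts were filtered with filterByExpr (minimum count 10), scaled by TMM and tested with edgeR 4.0.16 (R 4.3.3) quasi-likelihood F tests in the groups compared (all 4 for the interaction), with Benjamini-Hochberg adjustment over all genes tested and a threshold of 0.05. The fit is edgeR, whereas the study's methods name DESeq2, which was run as an alternative (1.42.0). Standard errors of edgeR fold changes were derived as the absolute log2 fold change over the square root of F. Scripts were tested on simulated data. Calls were counted over protein-coding genes only, after the test.

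The members and gene lists were chosen with earlier results of these data known. List genes are named where called and changed in the same direction in all 3 mice, up to 3 per list and comparison by size. Skap1, Tln1, Sipa1, Sipa1l1, Rapgef1, Rap1a, Sharpin, Actn4, Icam1, Itgam and Itgax were named after their values were seen. So were Cd9, Cd37, Cd53, Cd81, Tns1, Ilk, Git2, Pxn, Zyx, Arhgef7, Nedd9, Parvg, Ptk2b, Lims1 and Vasp. Each subunit's 3 most alike genes were taken by Pearson's r of log2 CPM (prior count 2). One gene is not reported here, which leaves 2 for Itgb7 and 1 fewer naïve marker. Numbers are paired through the mouse, since each mouse gave cells to every group. Deviations of same-mouse libraries from their group means correlated at a mean r of 0.043 (-0.0068 to 0.088, 18 pairs), against -0.022 for other pairs. No 2 libraries of a group agreed within sampling noise. Intervals and floors cover counting error only. Promoter sequences and start sites are from RefSeq (4 of 9 subunits matched), gene positions from GENCODE M21 on GRCm38. Alternatives were other scaling and filters, DESeq2, the mouse as a block, all 12 libraries in 1 fit and each library left out, and, chosen after seeing the data, library totals only, thinning to 1781218 counts and leaving out mitochondrial genes and Rn45s.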

Additional observations from a re-analysis of the deposited data

Results flagged for a closer look

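The effect of anti-LAIR-1 on Itgb7 differed with and without anti-CD3 by the interaction test. The term was 1.09 ± 0.26 on the log2 scale (edgeR adjusted p = 0.0248). Itgb7 was higher with anti-LAIR-1 in 3 of 3 mice with anti-CD3 (by 0.71 to 1.31) and in 1 of 3 mice without it (-0.20 to 0.08). The term was called under 16 of 22 alternative settings, with adjusted p from 0.0085 to 0.346. It was lost when counts were thinned and on leaving out the unstimulated, isotype library of mouse 2, the unstimulated, anti-LAIR-1 library of mouse 3, the anti-CD3, isotype library of mouse 1 or 3, or the anti-CD3, anti-LAIR-1 library of mouse 3.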

How the results depend on the processing

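All 9 subunits kept their call and direction after anti-CD3, with isotype control and with anti-LAIR-1, under every alternative that gave a value. Itga6 and Itgb3 passed the main filter on low counts only through the unstimulated libraries, so that being tested there went with a fall. With upper quartile scaling in place of TMM, the median log2 fold change of all genes after anti-CD3 shifted to -0.19 with isotype control and -0.23 with anti-LAIR-1. The genes called were then 2586 higher and 3489 lower with isotype control, against 3008 and 3015, and 2645 and 3802 with anti-LAIR-1, against 3213 and 3138, and the 4 rises were 0.67 to 1.51. With library totals only, chosen after seeing the data, the medians were -0.11 and -0.13 and the 4 rises 0.77 to 1.60. For anti-LAIR-1 in stimulated cells, 234 genes were called by DESeq2 with the mouse as a replicate block, 277 after thinning and 286 to 418 on leaving out each library, against 495, and 1 subunit (Itga4) was called under the first pair and 1 to 2 on leaving out each library, against 3. Pairing by edgeR with the mouse as a block gave 537 genes and 3 subunits, and changed no subunit's call in any comparison. Without anti-CD3, 3 genes were called with no filter and 0 to 1 on leaving out each library, none of them a subunit. For the interaction, 105 genes were called after thinning and 100 to 179 on leaving out each library, against 186. The subunits called were 2 by DESeq2, 2 with no filter, 0 after thinning and 0 to 2 on leaving out each library, against 1. The cause of these changes was not tested.

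Subunits that were not called changed sign on leaving out a library. With anti-CD3 the ranges for anti-LAIR-1 were -0.018 to 0.047 for Itgal, -0.15 to 0.0048 for Itgb1 and -0.012 to 0.13 for Itgb2. Without anti-CD3 they were -0.031 to 0.30 for Itga6, -0.35 to 0.27 for Itgae, -0.30 to 0.095 for Itgav, -0.0080 to 0.27 for Itgb1, -0.084 to 0.033 for Itgb2, -0.35 to 0.084 for Itgb3 and -0.10 to 0.0082 for Itgb7, and Itgav was 0.048 after thinning. For the interaction the range of Itgav was -0.33 to 0.061. Itga6 and Itgb3 did not pass the filter for anti-LAIR-1 in stimulated cells. They were not called in the settings that gave them a value, where Itga6 had a log2 fold change of 0.54 to 1.13 and Itgb3 of 1.06 to 1.07.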
